A study of Mus musculus with 8 samples.

Results

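Tau, encoded by Mapt, and the kinases GSK3, CDK5, AKT and MARK1 were followed at the transcript level in hippocampus of Ts1Cje mice and wild-type mice. The genes are Mapt, Gsk3a, Gsk3b, Cdk5, its activators Cdk5r1 and Cdk5r2, Akt1, Akt2 and Mark1. They are 9 of the 20660 gene symbols on the array, and every probe whose RefSeq accession maps to one of them was taken, whatever its values. This gave 16 of the 55681 non-control probes on the array: 3 each for Mapt, Gsk3b and Akt2, 2 for Cdk5r1, and 1 each for Gsk3a, Cdk5, Cdk5r2, Akt1 and Mark1. All 16 were well above background on all 8 arrays, and all 16 were among the 32596 probes tested.

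The study hybridised hippocampal RNA of 4 Ts1Cje mice and 4 wild-type mice, 1 array each. All are of strain C57BL6/J and 3 months old, and the series describes them as pairs of Ts1Cje and disomic littermates. The Ts1Cje line models Down syndrome: it is trisomic for the segment of chromosome 16 between Sod1 and Zbtb21, though 1 Sod1 copy is disrupted. The segment is translocated to chromosome 12, and 1 homologue of that chromosome lacks its distal tip. The rearrangement is inherited through the germline and is carried by all tissues. None of the 9 genes lies in either altered segment in the gene order of assembly GRCm38.p6. Gsk3b is on chromosome 16 but proximal to Sod1, with 243 protein-coding genes between them. Akt1 is on chromosome 12 but proximal to Dnah11, a gene of the deleted end, with 31 protein-coding genes between them. Mapt and Cdk5r1 lie on chromosome 11, Gsk3a and Akt2 on chromosome 7, Cdk5r2 and Mark1 on chromosome 1, and Cdk5 on chromosome 5.

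Tau is a neuronal protein that binds and stabilises microtubules, mainly in axons, and phosphorylation loosens this binding. GSK3 and CDK5 phosphorylate tau at serines and threonines followed by proline, while MARK kinases phosphorylate its microtubule-binding repeats. CDK5 is active only when bound to a regulatory subunit such as the products of Cdk5r1 and Cdk5r2, and AKT, which acts downstream of PI3 kinase, inhibits GSK3 by phosphorylating it. Hyperphosphorylated tau forms the neurofibrillary tangles of Alzheimer's disease, which also develop in people with Down syndrome. The arrays measure transcripts, so they hold no information on the amount, phosphorylation or activity of these proteins.

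Levels are given as log2 of the background-corrected spot signal minus the 75th percentile of the same array. A level of 0 is therefore the array's 75th percentile, and levels of different probes are not compared because probes bind with different efficiency. Differences are Ts1Cje minus wild-type on this log2 scale, with the standard error (SE), the 95% interval and the Benjamini-Hochberg adjusted p of limma over all probes tested. Between 59.9% and 63.1% of probes were well above background per array, and 61 of the 32596 tested probes (0.187%) passed an adjusted p of 0.05, of which 55 were higher and 6 lower in Ts1Cje. That count fell to 1 without Ts1Cje replicate 4 and lay between 1 and 51 when any 1 array was left out. All 11 neuron markers and all 10 hippocampal region markers examined were above background on all 8 arrays. No marker gene of any cell type examined passed the threshold, which does not establish equal cell composition. Of the hippocampal region markers 8 differed below 0 and 2 above (median -0.10), with 2 at an unadjusted p under 0.05. Of the choroid plexus and ependyma markers 6 differed below 0 and 1 above (median -0.21), with 3 at an unadjusted p under 0.05. The 1 above was Clic6 (0.74), which lies in the triplicated segment. Medians of the other marker lists lay between -0.043 for astrocytes and 0.36 for blood. For blood only 2 genes were tested, 1 of them above background on all 8 arrays. Because the tissue is bulk, fewer cells of a type and less RNA per cell cannot be told apart. The Ts1Cje arrays filled slide columns 2 and 4 and the wild-type arrays columns 1 and 3, which means that the effects of genotype and of column cannot be told apart.

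No probe of tau or of its kinases differed between Ts1Cje and wild-type hippocampus past the threshold. Of the 16 probes, 8 had a difference above 0 and 8 below 0, and adjusted p ranged between 0.59 and 0.98 (limma). Of the 16, 1 had an unadjusted p under 0.05, where 8.44% of all tested probes had one. The groups did not overlap for 1 of the 16, where this held for 6.0% of all tested probes. Both counts are near the share over all tested probes. Leaving aside Cdk5r2, the other 15 differences lay between -0.11 and 0.10, with SEs of 0.044 to 0.096. The 95% intervals of those 15 reached at most from 0.849-fold to 1.23-fold, and each of them excluded a log2 difference of 0.585, the value for 3 copies over 2. The median difference of the 16 probes was 0.0014, against -0.0063 for all tested probes. The median pooled within-group SD of the 16 probes was 0.057, against 0.128 for all tested probes, which were not matched for level. The 15 probes other than Cdk5r2 had mean levels above 0 in both groups, and Cdk5r2 had a pooled SD of 0.54.

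**Figure D1:**
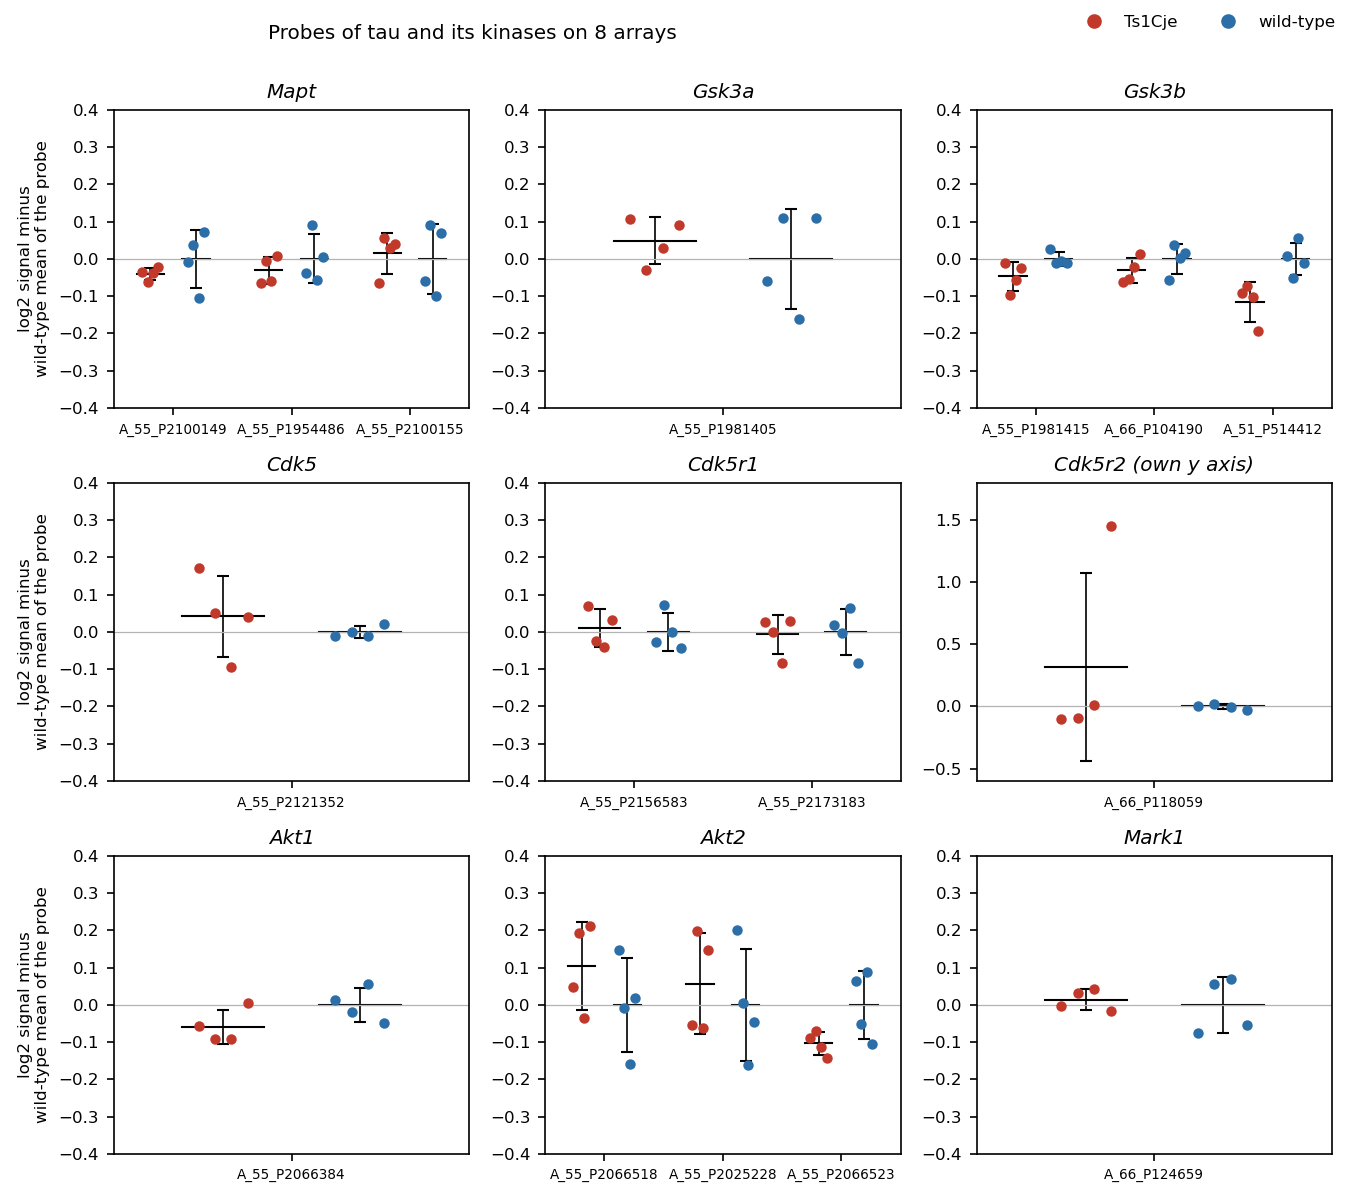
Level of each of the 16 probes on each array, as log2 signal minus the probe's wild-type mean, with Ts1Cje arrays (red) left of wild-type arrays (blue); points are single arrays, long bars group means and error bars the SD (n = 4), and Cdk5r2 has its own y axis. The groups overlap for every probe but A_51_P514412 of Gsk3b, and for Cdk5r2 Ts1Cje replicate 4 lies 1.44 above the next Ts1Cje array.

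Tau itself was measured by 3 probes, all assigned to one Mapt transcript accession. Probe A_55_P2100149 stood at 6.13, 6.10, 6.12 and 6.14 in Ts1Cje replicates 1 to 4, against 6.15, 6.20, 6.06 and 6.24 in wild-type replicates 1 to 4. After scaling, the wild-type arrays enclosed the Ts1Cje arrays, which lay within a narrow band. Before scaling the band was not narrower: the spot read 39367 to 42495 units in Ts1Cje and 40238 to 42536 units in wild-type. Wild-type replicate 3, the lowest, had the highest 75th percentile (638.6 units), and wild-type replicate 4, the highest, had the lowest (539.5 units). The difference was -0.040 (SE 0.052, interval -0.16 to 0.081, limma adjusted p = 0.84), or 0.973-fold. Probe A_55_P1954486 stood at 5.83, 5.88, 5.83 and 5.90 in Ts1Cje, against 5.85, 5.98, 5.83 and 5.89 in wild-type, a difference of -0.030 (SE 0.051, adjusted p = 0.88). Probe A_55_P2100155 stood at 5.13, 5.25, 5.23 and 5.24 in Ts1Cje, against 5.14, 5.29, 5.10 and 5.27 in wild-type, a difference of 0.015 (SE 0.061, adjusted p = 0.96). The groups overlapped for all 3 probes. The position of each probe along the transcript was not used here, so the probes cannot be assigned to splice forms of tau, such as those with and without exon 10.

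GSK3 is encoded by Gsk3a and Gsk3b, which give closely related kinases. Gsk3a, measured by probe A_55_P1981405, stood at 5.22, 5.09, 5.14 and 5.21 in Ts1Cje, against 5.05, 5.22, 4.95 and 5.22 in wild-type. The difference was 0.049 (SE 0.075, adjusted p = 0.86), with the wild-type arrays spread more widely than the Ts1Cje arrays. The brightest Gsk3b probe, A_55_P1981415, stood at 4.90, 4.81, 4.85 and 4.89 in Ts1Cje, against 4.94, 4.90, 4.90 and 4.90 in wild-type. Its difference was -0.047 (SE 0.044, interval -0.15 to 0.054, adjusted p = 0.77), the smallest SE among the 16 probes. Probe A_66_P104190 stood at 2.99, 3.00, 3.03 and 3.06 in Ts1Cje, against 2.99, 3.09, 3.06 and 3.07 in wild-type, a difference of -0.031 (SE 0.046, adjusted p = 0.86).

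The dimmest Gsk3b probe was the only one of the 16 whose groups did not overlap, which was the case for 6.0% of all tested probes. A_51_P514412 stood at 0.59, 0.61, 0.58 and 0.49 in Ts1Cje, against 0.69, 0.64, 0.74 and 0.67 in wild-type. Every Ts1Cje array was below every wild-type array, with Ts1Cje replicate 2 and wild-type replicate 2 separated by little. The difference was -0.11 (SE 0.050, interval -0.23 to -0.0002), or 0.924-fold, with an unadjusted p of 0.0496 and an adjusted p of 0.59 (limma), so it did not pass. With any 1 array left out the difference ran from -0.13 to -0.089. Leaving out Ts1Cje replicate 4 gave -0.089 (limma adjusted p = 0.83), and leaving out wild-type replicate 3 gave -0.096 (limma adjusted p = 0.67). Without wild-type replicate 3 the groups still did not overlap. Before scaling they did overlap, with Ts1Cje replicate 3 at 913.5 units and wild-type replicate 4 at 861.3 units. On wild-type replicate 3, the highest array, 19 of the 24 spots around this probe were brighter than on every other array before scaling, and 1 of 11 dim ones, under 50 units on the other arrays, read 174.9 units. That array also had the highest 75th percentile, 638.6 units against 539.5 to 609.5 units on the other 7. The part of the spot's surroundings in the value was not tested. All 3 Gsk3b probes had differences below 0, and the other 2 had overlapping groups.

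Cdk5 is a kinase of postmitotic neurons. Its probe A_55_P2121352 stood at 4.04, 3.92, 3.77 and 3.91 in Ts1Cje, against 3.85, 3.87, 3.86 and 3.89 in wild-type. After scaling, the Ts1Cje arrays enclosed the wild-type arrays, with an SD of 0.109 in Ts1Cje and 0.0149 in wild-type (n = 4 each). Before scaling the spot read 8321.4 to 9247.3 units in Ts1Cje and 7977.7 to 9244.9 units in wild-type. The difference was 0.042 (SE 0.062, interval -0.10 to 0.18, adjusted p = 0.86). Cdk5r1 encodes the activator whose calpain cleavage product binds CDK5 for longer. Its probe A_55_P2156583 stood at 5.62, 5.52, 5.51 and 5.58 in Ts1Cje, against 5.52, 5.62, 5.55 and 5.51 in wild-type, a difference of 0.0095 (SE 0.051, adjusted p = 0.97). Its probe A_55_P2173183 stood at 4.36, 4.34, 4.25 and 4.37 in Ts1Cje, against 4.36, 4.34, 4.40 and 4.25 in wild-type, a difference of -0.0067 (SE 0.053, adjusted p = 0.98). The groups overlapped almost fully for both Cdk5r1 probes.

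Cdk5r2, which encodes the other neuronal CDK5 activator, had the widest interval of the 9 genes, and 1 array set it. Its only probe, A_66_P118059, stood at -1.97, -1.96, -1.86 and -0.42 in Ts1Cje, against -1.86, -1.85, -1.87 and -1.90 in wild-type. Ts1Cje replicate 4 was far above the other 7 arrays, while Ts1Cje replicates 1 and 2 lay below all 4 wild-type arrays. The difference was 0.32 (SE 0.33, interval -0.44 to 1.07, limma adjusted p = 0.80), or 1.25-fold. Without Ts1Cje replicate 4 the sign turned: the difference was -0.061 (SE 0.056, interval -0.19 to 0.071, adjusted p = 0.87), with an interval of 0.875-fold to 1.05-fold.

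The spot of Cdk5r2 and the spots around it were bright together on that array. The spot's processed signal was 143.8, 149.2, 168.4 and 430.5 units in Ts1Cje replicates 1 to 4, against 155.4, 159.6, 174.6 and 144.8 units in wild-type replicates 1 to 4. Feature Extraction gave the spot an extent of 20.9 pixels on Ts1Cje replicate 4 and of 26.2 to 27.5 pixels on the other 7 arrays. Of the 24 spots within 2 rows and 2 columns of it, 13 were brighter on Ts1Cje replicate 4 than on every other array. Of these 24, 14 were dim, under 50 units on each of the other 7 arrays, and 5 of the 14 exceeded 100 units on Ts1Cje replicate 4, the brightest at 383.2 units. None of these 5 spots exceeded 16.4 units on any of the other 7 arrays. Over the 17 spots of the 16 probes on 8 arrays, 136 spots in all, no other had more than 2 such neighbours. No outlier or saturation flag was set at the Cdk5r2 spot.

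**Figure D2:**
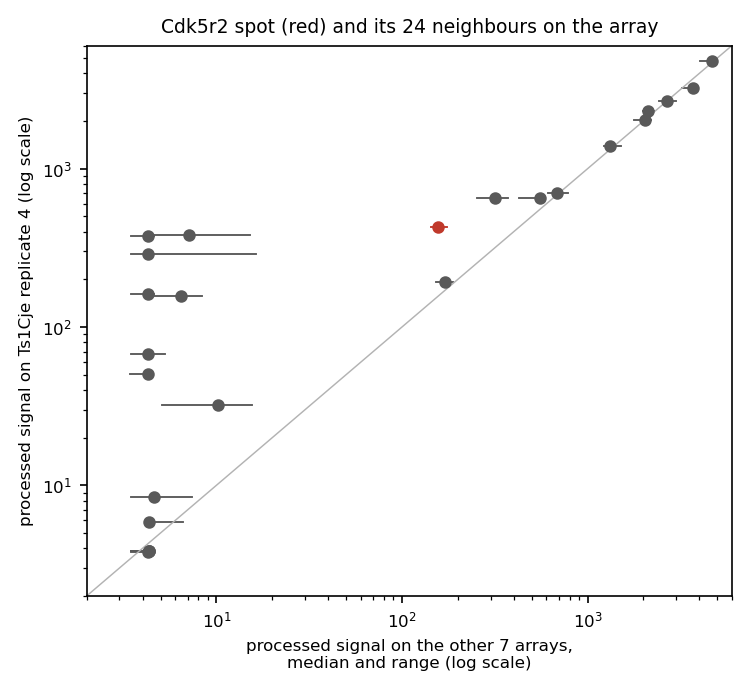
Processed signal of the Cdk5r2 spot (red) and the 24 spots around it (grey), on log axes, with Ts1Cje replicate 4 on the y axis and the median and range of the other 7 arrays on the x axis; the line marks equal signal. On Ts1Cje replicate 4, 5 of the 14 dim neighbouring spots exceeded 100 units, and the Cdk5r2 spot read 430.5 units.

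The AKT kinases lie upstream of GSK3. Akt1, measured by A_55_P2066384 in 2 spots per array, stood at 4.72, 4.69, 4.69 and 4.78 in Ts1Cje, against 4.79, 4.76, 4.83 and 4.73 in wild-type. The highest Ts1Cje array lay among the wild-type arrays, and the difference was -0.059 (SE 0.048, interval -0.17 to 0.052, adjusted p = 0.74). Akt2, the isoform best known for insulin signalling, had 3 probes that did not move as one. Probe A_55_P2066518 stood at 3.74, 3.89, 3.66 and 3.91 in Ts1Cje, against 3.85, 3.69, 3.54 and 3.72 in wild-type, a difference of 0.10 (SE 0.084, interval -0.089 to 0.30, adjusted p = 0.74). Probe A_55_P2025228 stood at 3.57, 3.83, 3.57 and 3.78 in Ts1Cje, against 3.83, 3.63, 3.47 and 3.58 in wild-type, a difference of 0.057 (SE 0.096, adjusted p = 0.87). The first of these differed by 0.052 and the second by 0.0035 without wild-type replicate 3. Both had wide spreads within each group, and wild-type replicate 1 lay above the other 3 wild-type arrays in both. Probe A_55_P2066523 stood at 0.40, 0.42, 0.38 and 0.35 in Ts1Cje, against 0.55, 0.44, 0.58 and 0.39 in wild-type. Its difference was of the opposite sign, -0.10 (SE 0.058, adjusted p = 0.66), and the groups overlapped at wild-type replicate 4.

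Among the 10 pairs of probes of one gene, the first 2 Akt2 probes had the highest Pearson correlation over the 8 arrays. Pearson's r was 0.928 (exact permutation p = 0.0028, adjusted over the 10 pairs 0.028) and Spearman's rho 0.810 (exact permutation p = 0.022, adjusted 0.11). Without the 2 arrays farthest from the median of the first probe r was 0.914. The third Akt2 probe gave r of -0.38 and -0.10 with them (exact permutation adjusted p = 0.49 and 0.90), which became 0.55 and -0.73 without the 2 farthest arrays. The 3 Mapt pairs had r of 0.62, 0.62 and 0.76 (exact permutation adjusted p = 0.27, 0.27 and 0.10), which became 0.71, 0.25 and 0.71. The Mapt pair A_55_P1954486 and A_55_P2100155 equalled the Akt2 pair by Spearman's rho, 0.810 (exact permutation adjusted p = 0.11). Rows of the slide hold 4 arrays each, too few for r within a row.

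Mark1 encodes a kinase that detaches tau from microtubules. Its probe A_66_P124659 stood at 1.28, 1.31, 1.32 and 1.26 in Ts1Cje, against 1.20, 1.34, 1.35 and 1.23 in wild-type. The wild-type arrays enclosed the Ts1Cje arrays, and the difference was 0.014 (SE 0.053, interval -0.11 to 0.14, adjusted p = 0.95).

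**Figure D3:**
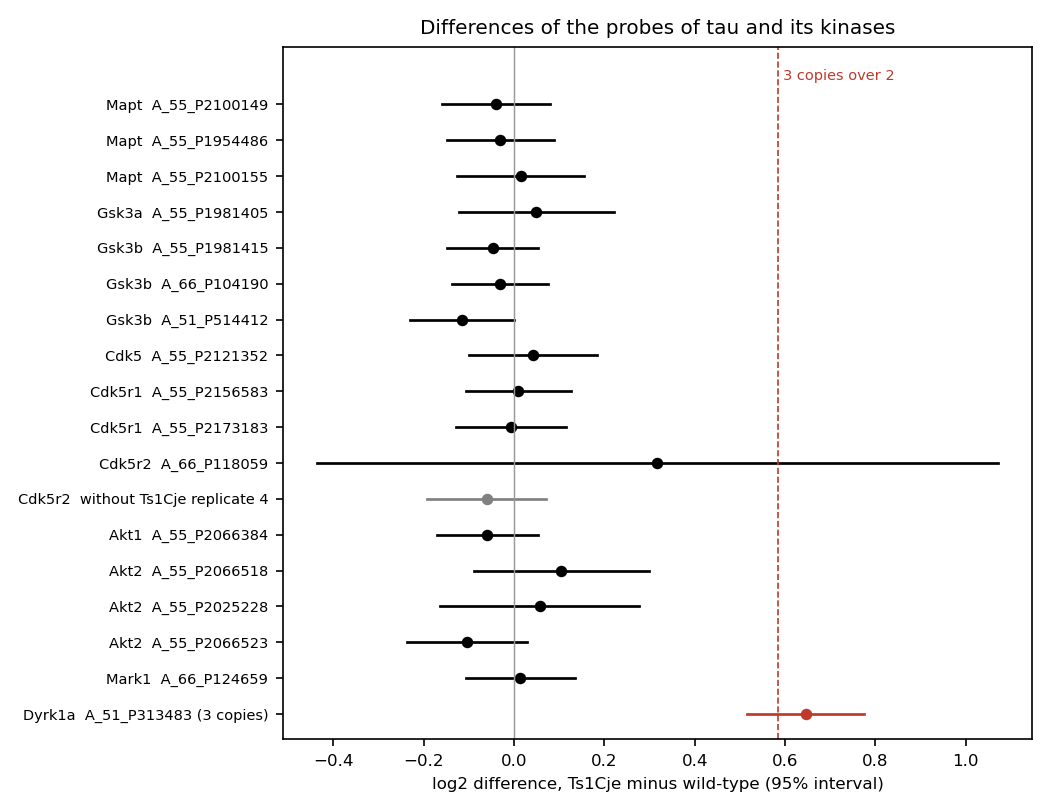
Difference of each of the 16 probes, Ts1Cje minus wild-type on the log2 scale, with its 95% interval (limma). The intervals of the 15 other probes lie between -0.24 and 0.30, and that of Cdk5r2 runs from -0.44 to 1.07; Cdk5r2 without Ts1Cje replicate 4 (grey) is at -0.061, triplicated Dyrk1a (red) is drawn for scale at 0.65, and the dashed line marks 0.585, the log2 of 3 copies over 2.

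The arrays lay in 2 rows of 1 slide, with replicates 1 and 2 of both groups in one row and replicates 3 and 4 in the other. The sign of the difference turned between the rows for 6 of the 16 probes. These were Mapt A_55_P1954486 (-0.061 and 0.0008) and A_55_P2100155 (-0.020 and 0.051), Cdk5 (0.12 and -0.033), Cdk5r1 A_55_P2173183 (0.0055 and -0.019), Akt2 A_55_P2025228 (-0.032 and 0.15) and Cdk5r2 (-0.11 and 0.75), where the second row holds Ts1Cje replicate 4. The dimmest Gsk3b probe differed by -0.060 and -0.17 and the brightest by -0.062 and -0.032. The first Mapt probe differed by -0.064 and -0.015, and Akt1 by -0.071 and -0.046. Each row holds 2 arrays per group, and no test was run within a row.

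Genes that act with tau and its kinases were examined in 7 lists, which together hold 193 genes, 188 of them tested. Each gene was represented by its brightest probe. One gene was called, Dyrk1a, which lies in the triplicated segment. Over all 15089 named genes, 0.199% were called higher and 0.0265% lower in Ts1Cje, and 8.19% had an unadjusted p under 0.05. In the lists 11 of the 188 genes had one, 5.85%. Differences were below 0 for 121 of the 188 genes, 64.4%, and their median was -0.021. Over all named genes 57.0% were below 0, with a median of -0.016. The share below 0 was 77.4% for the AKT pathway, 74.1% for tau phosphatases and 70.8% for tau turnover and partners. It was 61.8% for other tau kinases, 60.0% for GSK3 partners, 56.7% for microtubule-associated proteins and 45.5% for CDK5 partners. With the array median as centre, the median difference of all probes shifted by -0.050, further than any list median lay from 0. That setting moves every probe by the same amount. It can turn signs, but the distance between a list's median and that of all named genes stays the same.

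Among other kinases that phosphorylate tau, 13 of 34 tested genes had a difference above 0 and 21 below 0 (median -0.030). Cdk1 and Cdk2 did not pass the filter. Dyrk1a, which phosphorylates tau and primes it for GSK3, was higher in Ts1Cje. Its probe A_51_P313483 stood at 0.46, 0.36, 0.40 and 0.46 in Ts1Cje, against -0.23, -0.15, -0.33 and -0.18 in wild-type. All 4 Ts1Cje arrays were above all 4 wild-type arrays, and the difference was 0.65 (SE 0.056, limma adjusted p = 0.011), or 1.56-fold. Its other probe, A_55_P2143195, gave 0.60 (adjusted p = 0.0098). The call of Dyrk1a's brightest probe was lost without Ts1Cje replicate 2 (adjusted p = 0.055), 3 (0.057) or 4 (0.064) and with no filter on dim probes (0.068), while the difference stayed between 0.61 and 0.67 with any 1 array left out. Its relative Dyrk1b, outside the triplicated segment, differed by -0.092 (SE 0.097), and by -0.090 (SE 0.054) with its other probe. The other MARK kinases had differences of 0.011 for Mark2, -0.047 for Mark3 and 0.018 for Mark4, with SEs of 0.054 to 0.089. The most negative difference in the list was that of Sgk1, a kinase induced by glucocorticoids, at -0.31, with an SE of 0.28, and at -0.15 without Ts1Cje replicate 2 or wild-type replicate 3.

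Of the phosphatases that act on tau and their regulators, 7 of 27 tested genes had a difference above 0 and 20 below 0 (74.1%, against 57.0% of all named genes; median -0.038), and none was called, with 2 at an unadjusted p under 0.05. Ppp2ca, the catalytic subunit of PP2A, the main tau phosphatase, differed by -0.020 (SE 0.057), and Ppp2r2a, a regulatory B subunit, by -0.072 (SE 0.058). The ends of the list were Igbp1, a protein that binds the PP2A catalytic subunit, at -0.22 (SE 0.059, adjusted p = 0.36), and Ppp2r5b, another PP2A regulatory subunit, at 0.13 (SE 0.068).

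In the AKT pathway, 7 of 31 tested genes had a difference above 0 and 24 below 0 (77.4%, against 57.0% of all named genes; median -0.044). None was called, with 4 at an unadjusted p under 0.05. Pik3r3, a regulatory subunit of PI3 kinase, averaged 2.37 ± 0.05 in Ts1Cje and 2.69 ± 0.04 in wild-type (SD, n = 4 each). All 4 Ts1Cje arrays were below all 4 wild-type arrays, and the difference of -0.32 had an adjusted p of 0.061 over all probes. It passed in 5 of the alternatives: with 1 probe per gene (adjusted p = 0.049), the mean over probes (0.044), normexp (0.027), a trended and robust prior (0.0093) and array weights (0.038). With any 1 array left out its adjusted p was 0.11 to 0.21. Trib3, a pseudokinase that binds AKT, averaged -1.78 ± 0.04 in Ts1Cje and -2.10 ± 0.07 in wild-type (SD, n = 4 each), a difference of 0.32 with an adjusted p of 0.078. Normexp background correction gave 0.18 (adjusted p = 0.28), and array weights gave 0.34 (adjusted p = 0.042).

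The remaining lists held no call. Among partners of GSK3 in Wnt signalling 8 of 20 genes were above 0 and 12 below 0 (median -0.0041). The lowest was Btrc, a ubiquitin ligase subunit that recognises phosphorylated beta-catenin, at -0.15, with -0.076 (SE 0.081) for its other probe. The highest was Lef1, a transcription factor, at 0.10, or 0.022 without wild-type replicate 4. Among partners and substrates of CDK5 12 of 22 were above 0 and 10 below 0 (median 0.0071), between Ccnd1, cyclin D1, at -0.18 and Syn1, a synaptic vesicle protein, at 0.15. Ccnd1 was at -0.097 without Ts1Cje replicate 3, and Syn1 at 0.065 without wild-type replicate 3. Each of these lists had 1 gene with an unadjusted p under 0.05.

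Among microtubule-associated proteins, tubulins and tubulin-modifying enzymes 13 of 30 tested genes were above 0 and 17 below 0 (median -0.0078), with 1 at an unadjusted p under 0.05. Clasp1, Camsap1 and Camsap2 matched no probe. Map2, the dendritic relative of tau, differed by -0.018 (SE 0.13), with wild-type replicate 3 above the other wild-type arrays. Its other probe differed by -0.039 (SE 0.060), with a wild-type SD of 0.024. The 2 probes of Map1b, a microtubule-associated protein of growing axons, gave 0.091 and -0.091 and so disagreed in sign. Hdac6, a tubulin deacetylase that also binds tau, averaged 2.99 ± 0.03 in Ts1Cje and 2.78 ± 0.08 in wild-type (SD, n = 4 each), a difference of 0.21 with an adjusted p of 0.35. Its other probe differed by 0.22 (adjusted p = 0.26). Tubb2b, a neuronal tubulin, was at the other end of the list at -0.14 (SE 0.074), or -0.075 without Ts1Cje replicate 1. The other Tubb2b probe differed by -0.17 (SE 0.082). Among genes of tau turnover and tau's partners 7 of 24 were above 0 and 17 below 0 (70.8%, against 57.0% of all named genes; median -0.040), with 1 at an unadjusted p under 0.05. The highest difference was that of Oga, which removes O-GlcNAc from proteins, at 0.15 (SE 0.12), or 0.045 without wild-type replicate 3.

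**Figure D4:**
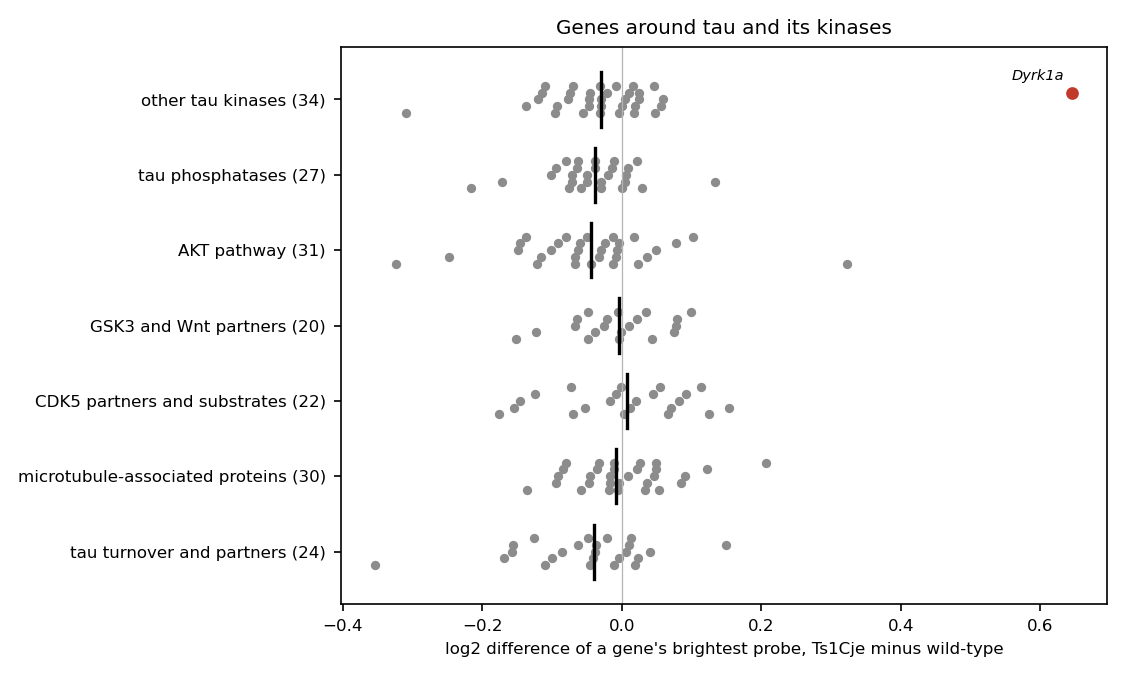
Differences of the genes in each list, Ts1Cje minus wild-type on the log2 scale, 1 point per gene by its brightest probe, with the number of genes tested in brackets and each list's median as a black line. Dyrk1a, at 0.65 (red), is the 1 gene called, and the medians of the lists lie between -0.044 and 0.0071.

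The genes whose brightest probe followed that of Mapt most closely over the 8 arrays were Ercc1 (r = 0.980), Krtap5-1 (r = 0.970), Ccdc81 (r = 0.965) and Rpl30 (r = 0.962). Of the 14738 genes compared, 36 had r above 0.9, or 0.244%. These are descriptions over 8 arrays that share the scaling of each array, and Mapt itself ranged over only 0.18 on the log2 scale. With the array median as centre, r was 0.979 for Ercc1 and 0.957 for Rpl30, but 0.872 for Krtap5-1 and 0.738 for Ccdc81.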

How the data were processed

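Total RNA of hippocampus (0.1 µg) was labelled with Cy3 and hybridised to 8 one-colour arrays, according to the labels' protocols. Agilent Feature Extraction 10.10.1.1 read the images and the probe design used build mm9, per the file headers. The files as deposited hold linear intensities: the authors' processed signal of each spot, background-corrected and not normalized between arrays, and median spot and background signals, with quality flags.

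Controls and spots with an outlier flag were dropped; saturation occurred at no spot. Spots of a probe were averaged as log2 processed signal, then scaled by subtracting the 75th percentile of the array. A probe was tested if it was well above background on every array of either group, which 32596 probes were. Symbols came from RefSeq accessions in a table of GRCm38.p6, and no coordinates are printed because the builds differ. Groups were compared per probe with limma 3.58.1 in R 4.3.3 (lmFit, eBayes, no block), and an adjusted p under 0.05 was called. P-values measure the spread between labelled replicates, taken as separate mice. The number of arrays limits the precision.

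The genes, the lists and the tests were chosen with earlier results of these data known. Every probe of the 9 genes is given. Of each list, the text names a few genes listed by name, the genes with the lowest and the highest difference and any gene called; a few others are named where a result turns on them. Single values of 3 genes that this rule would name are not reported here.

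On data simulated over the 32596 probes, with 200 changed, the fit recovered 50% of 1.5-fold and 81% of 2-fold changes, with 5 false calls among 136, and made 0 calls with no change. Same-numbered Ts1Cje and wild-type arrays had correlated deviations of 0.22, 0.19, 0.11 and 0.069. Since 1 of the 4 was not over 0.1 and the labels tie no number to a litter, the numbers were not taken as pairs, though littermate pairs are described for the series; the closing section gives the fit with the number as a block. Alternatives were normexp (offset 50, on the median signals), the array median as centre, quantile normalization, a stricter and no filter on dim probes, 1 value per gene, a trended and robust prior, array weights, the replicate number or slide row as a block, an adjusted p under 0.1, and each array left out in turn. Plots used matplotlib 3.10.9 in Python 3.11.15.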

Additional observations from a re-analysis of the deposited data

Results flagged for a closer look

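In sets of 4 arrays, an array was singled out where its gap to the nearest other, divided by the range of the set, exceeded Dixon's 95% critical value. Of 74 sets examined 5 did so, where a rate of 1 in 20 gives 3.7. That rate is for independent sets not chosen by their values. Here some genes were named for the extreme difference of their list, and some sets are probes of one gene. The 3.7 is therefore only a rough guide. Ts1Cje replicate 4 stood apart for Cdk5r2 (0.926), with a gap of 1.44 on the log2 scale. Wild-type replicate 1 stood apart for the Gsk3b probe A_55_P1981415 (0.884), with a gap of only 0.034. Ts1Cje replicate 1 stood apart for Ppp2ca (0.950, gap 0.12). Ts1Cje replicate 3 stood apart for Ccnd1 (0.834, gap 0.28). Wild-type replicate 3 stood apart for the brightest Map2 probe (0.897, gap 0.48), while the other Map2 probe had a wild-type SD of 0.024.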

How the results depend on the processing

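None of the 16 probes was called under any of the 19 settings tested (lowest adjusted p 0.42 over 290 values). Signs turned in 19 of these values, in 8 probes, to values of at most 0.061 in size. With the array median as centre, which lowered the median difference of all probes by 0.050, they were -0.035 for Mapt A_55_P2100155, -0.00091 for Gsk3a, -0.0086 for Cdk5, -0.041 for Cdk5r1 A_55_P2156583 and -0.036 for Mark1, with Mark2 at -0.039 and Mark4 at -0.032. Quantile normalization gave 0.018 for Cdk5r1 A_55_P2173183, 0.0051 for Ppp2ca and 0.00026 for Map2. Array weights gave 0.017 for the same Cdk5r1 probe, -0.0032 for Mark4, 0.0094 for Ppp2ca and 0.056 for Map2. Normexp gave -0.010 for Mark2, -0.020 for Mark4 and 0.0020 for Ppp2ca, and the mean over probes -5.75e-05 for Map1b. With 1 array left out, values ran from -0.049 to 0.00015 for Mapt A_55_P1954486, -0.018 to 0.045 for Mapt A_55_P2100155, -0.0041 to 0.086 for Gsk3a, -0.0013 to 0.087 for Cdk5, -0.011 to 0.033 for Cdk5r1 A_55_P2156583, -0.034 to 0.019 for Cdk5r1 A_55_P2173183, -0.061 to 0.46 for Cdk5r2, -0.011 to 0.038 for Mark1, -0.013 to 0.041 for Mark2, -0.086 to 0.0076 for Mark3, -0.043 to 0.078 for Mark4, -0.049 to 0.011 for Ppp2ca and -0.070 to 0.11 for Map2.

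All probes called, 61 in the setting reported, numbered 32 with the array median as centre, 3 with no filter on dim probes, 102 with array weights and 133 at an adjusted p under 0.1. With the replicate block the count was 1, and the call of Dyrk1a was lost (adjusted p = 0.096). The labels give same-numbered arrays only the number; they also lie in neighbouring columns of one slide row, and 7 of 8 arrays correlated best with their own number, a hint from the data and not from the design. With 1 array left out the count ran from 1 to 51. Calls in the lists, 1 as reported, were 2 with normexp, 1 probe per gene, the mean over probes and the trended prior, 3 with array weights and at 0.1, 0 with no filter and with the replicate block, and 0 to 1 with 1 array left out. No filter adds probes to the tests, and leaving out an array removes a replicate. The cause of the shifts was not tested for any of these settings.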

Other observations

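Ts1Cje replicate 4 stood over 1 log2 unit above all other 7 arrays for Cdk5r2. Among the 32596 tested probes, a single array standing at least 1 log2 unit above all others was seen for 86, 69, 73 and 70 probes on Ts1Cje replicates 1 to 4, against 83, 53, 55 and 76 probes on wild-type replicates 1 to 4. An array standing as far below all others was seen for 7, 1, 2 and 2 probes on the Ts1Cje arrays, against 13, 45, 32 and 4 probes on the wild-type arrays. Cdk5r2 was the only one of the 16 probes of tau and its kinases with such an array.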
